A study of Mus musculus with 21 samples.

Results

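RNA of regulatory T cells (Tregs) of the spleen was compared with RNA of conventional T cells (Tconvs) of the same organ, gene by gene over every gene that passed a filter on low counts. Members were chosen by column name: the 3 spleen Treg and the 3 spleen Tconv libraries, 6 of the 21 libraries of the series. Both groups came from Foxp3-GFP mice of 8 weeks of age at day 7 after myocardial infarction, in which a blocked coronary artery kills heart muscle. All 21 libraries share the reporter and the infarction, so the comparison is between cell types of an injured animal and not between injury and health. The other 15 libraries are Tregs and Tconvs of the heart and of a site labelled NDLN, and Tregs of the heart-draining MLN. Per the labels' protocols, cells passed a magnetic and then a fluorescence-activated sort straight into lysate, and a SMARTer ultra low input kit turned their RNA into libraries. The labels do not say that the libraries of a group came from separate animals, so p-values measure the spread between libraries, which may be partly technical.

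Tregs are CD4 T cells that hold back the responses of other T cells, and the transcription factor Foxp3 defines them. They carry the high-affinity receptor for interleukin-2, a growth factor that they consume but hardly make, and they display inhibitory and costimulatory receptors at high density, among them CTLA-4 and several receptors of the tumour necrosis factor (TNF) family. Tconvs are the CD4 T cells without Foxp3, which include naive cells and the helper cells that secrete cytokines. The spleen is a large reservoir of both, together with B cells, macrophages and red blood cells.

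The spleen libraries held 19004326 to 27827354 counts and 10167 to 13702 genes with at least 1 count. Across genes, log values of replicates correlated with Pearson's r of 0.730 to 0.787, and in no pair of replicates was the disagreement down to sampling noise alone. Between Treg and Tconv libraries r ran from 0.679 to 0.78, so the ranges overlapped. Mitochondrial genes took 4.97% to 10.6% of counts, and ribosomal protein genes took 10.7% to 13.9% of counts in Tregs and 16.2% to 22.4% in Tconvs. Levels are CPM, that is, counts relative to the size of the library, here with TMM factors, and a difference is Tregs over Tconvs with its standard error (SE). A gene was called where edgeR's quasi-likelihood test with Benjamini-Hochberg adjustment over 14996 genes gave an adjusted p under 0.05. The words "called", "rose" and "fell" refer to that threshold.

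The cell sort used the Foxp3 reporter, so Foxp3 (ENSMUSG00000039521; chromosome X, 7573644 to 7595245, plus strand, GRCm38) checks the labels and is no finding. It stood at 84.3, 109 and 72.8 CPM in the Treg libraries 1 to 3, against 0.0433, 0.0393 and 0 CPM in the Tconv libraries 1 to 3, that is 6859 counts against 2. All 6 libraries matched their labels. Its exons overlap those of Flicr, Ccdc22 and Ppp1r3f, and the strand setting of the counting is not given in the sources used here, so that some of its counts may belong to them. Cd3e, a chain of the T cell receptor complex, stood at 210, 263 and 108 CPM in Tregs, against 180, 180 and 93.5 CPM in Tconvs. Cd4, the coreceptor of both cell types, stood at 27.6, 40.3 and 40.4 CPM in Tregs, against 149, 64.1 and 46.6 CPM in Tconvs (log2 difference -1.27 ± 0.64 SE, adjusted p 0.607). The T cell label therefore had its defining markers in every library.

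Genes of other cell types were present as well, mainly in the Treg libraries. The 12 B cell markers summed to 265, 544 and 410 CPM of the library total in Tregs, against 0.148, 29.5 and 15.4 CPM in Tconvs. The haemoglobin and other erythroid markers summed to 23822, 1230 and 10482 CPM in Tregs, against 361, 854 and 1171 CPM in Tconvs, so Treg libraries 1 and 3 stood apart. Immunoglobulin genes summed to 1927, 20500 and 8769 CPM in Tregs, against 547, 1281 and 763 CPM in Tconvs, with Treg library 2 the highest. Markers of CD8 and NK cells ran the other way in part: they summed to 1161, 411 and 428 CPM in Tregs, against 878, 3546 and 1552 CPM in Tconvs, although Cd8a itself had 121 counts in Tregs and 173 in Tconvs. In bulk samples, fewer cells of a type and less RNA per cell cannot be told apart. The part of these cells in the differences below was not tested, and their values are repeated beside the gene groups with which they move.

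Of the 14996 genes, 39 were called (0.26%), 27 of them higher in Tregs (0.18%) and 12 lower (0.08%). They comprised 32 protein-coding genes, 4 immunoglobulin genes, 2 processed pseudogenes and 1 non-coding RNA. In all 39 the CPM of the 3 Treg libraries did not overlap those of the 3 Tconv libraries, which held for 12.8% of all genes (7.12% upwards and 5.67% downwards). Over all genes the median log2 difference was 0.06, and 52.2% of genes had a positive one. At an unadjusted p under 0.05 there were 1272 genes, 8.48% of those tested.

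The number of calls depended on the tool, while none of the 39 genes changed direction in any setting tried. DESeq2 called 898 genes (6.35% of the 14142 that it tested), 607 of them higher (4.29%) and 291 lower (2.06%), and limma-voom called 136, 111 higher and 25 lower (0.907%). edgeR's older quasi-likelihood setting called 9, 8 higher and 1 lower. Of the 39 genes, DESeq2 also called 34 and limma-voom 21. With single libraries left out, edgeR called 25, 14 and 24 genes without Treg library 1, 2 and 3, and 15, 32 and 13 without Tconv library 1, 2 and 3. The 12 genes that kept their call in all 6 of these repeats were Ctla4, Ikzf2, Tnfrsf9, Foxp3, Sdf4, Tnfrsf1b, Gm6637 and Ighd, which were higher, and Dapl1, Gm17828, Pde3b and Tnfsf8, which were lower.

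**Figure D1:**
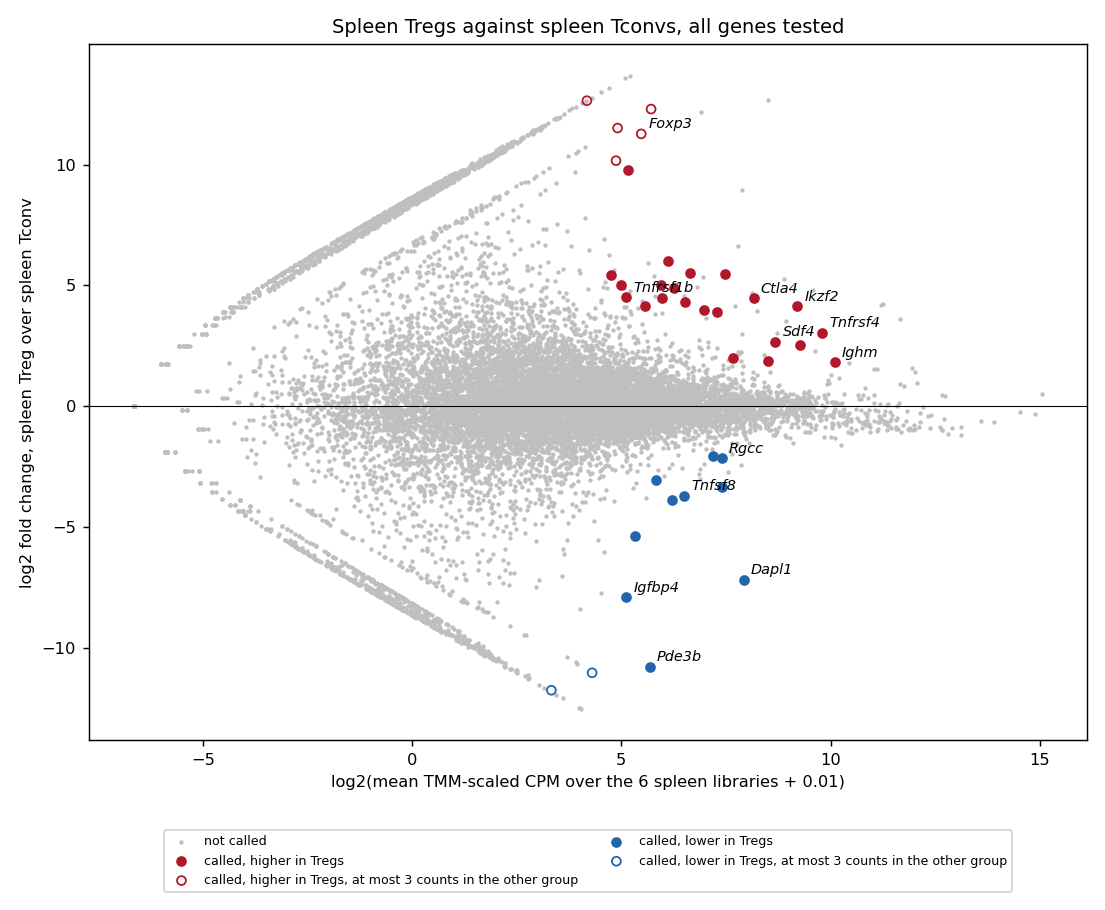
Each point is 1 of 14996 genes, with its mean level over the 6 spleen libraries on the x axis (log2 of CPM plus 0.01) and the log2 difference of Tregs over Tconvs on the y axis; called genes are coloured, and open symbols had at most 3 counts in the other group. The 27 genes called higher and the 12 called lower lie at the upper and lower rim of a cloud centred on a median of 0.06.

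**Figure D2:**
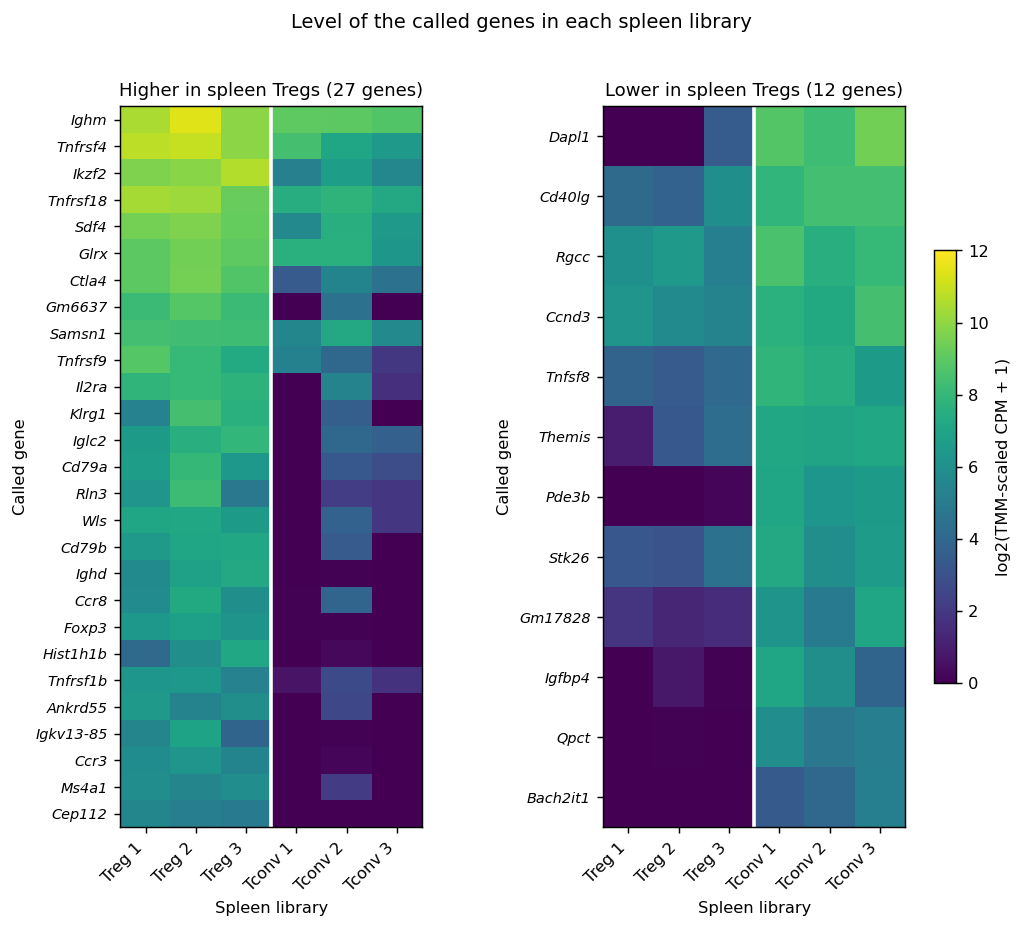
Level of the 39 called genes in each of the 6 spleen libraries, as log2 of CPM plus 1, with the 3 Treg libraries on the left and the 3 Tconv libraries on the right. In every line the Treg and Tconv libraries do not overlap, and Tconv library 2 is the highest Tconv library for 22 of the 26 higher genes that had any count in Tconvs, as it is for 39.7% of all genes with a Tconv count.

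Genes that mark Treg identity rose, led by Ikzf2 and Ctla4. Ikzf2 (ENSMUSG00000025997; chromosome 1, 69531214 to 69687245, minus strand) encodes Helios, a zinc finger transcription factor found in most thymus-derived Tregs. It stood at 829, 920 and 1584 CPM in Tregs, against 36.5, 105 and 46.4 CPM in Tconvs. The lowest Treg library thus lay far above the highest Tconv library, and the gene rose by 4.13 ± 0.48 (SE) on the log2 scale, or 17.6-fold (adjusted p 5.34e-05). Ctla4 (ENSMUSG00000026011; chromosome 1, 60887000 to 60915832, plus strand) encodes the inhibitory receptor that competes with CD28 for the costimulatory ligands B7-1 and B7-2. It stood at 506, 714 and 420 CPM in Tregs, against 9.87, 41.1 and 22.2 CPM in Tconvs. The groups were again wide apart, and Ctla4 rose 22.2-fold (log2 difference 4.47 ± 0.52 SE, adjusted p 5.34e-05).

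Il2ra (ENSMUSG00000026770; chromosome 2, 11642807 to 11693193, plus strand) encodes CD25, the chain that gives the interleukin-2 receptor its high affinity. It stood at 228, 263 and 215 CPM in Tregs, against 0, 40.3 and 2.07 CPM in Tconvs. Tregs were even among themselves, whereas nearly all Tconv counts came from library 2. Il2ra rose 15.6-fold (log2 difference 3.96 ± 0.87 SE, adjusted p 0.0470). Its call was lost when any of the libraries other than Tconv library 2 was left out, with adjusted p up to 0.330. Over the 17 settings tried for each gene, Ikzf2 was called in 17, Ctla4 in 16, Foxp3 in 16 and Il2ra in 7.

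All 24 genes of the Treg core list had a positive difference (52.2% of all genes), and 8 of them were called (0.18% of all genes, upwards). The 24 and the 8 include Foxp3, whose reporter the cell sort used, so its part in the values of this list was fixed beforehand. Their median log2 difference was 3.94, against 0.06 over all genes tested. In 19 of the 24 the groups did not overlap upwards, which held for 7.12% of all genes. The summed level of the list was 9628, 10834 and 5927 CPM of the library total in Tregs, against 1033, 1753 and 669 CPM in Tconvs. Members that did not pass included Tigit, an inhibitory receptor for ligands of the nectin family, at 1302, 1004 and 393 CPM in Tregs, against 17.9, 209 and 2.94 CPM in Tconvs (adjusted p 0.124). Icos, a costimulatory receptor of the CD28 family, stood at 1393, 1675 and 871 CPM in Tregs, against 267, 383 and 150 CPM in Tconvs (adjusted p 0.315). Lrrc32, which encodes GARP, the surface anchor of latent TGF-beta, had 1736 counts in Tregs and 0 in Tconvs, at least 504-fold higher. Its level lay between 7.81 and 38 CPM among the Treg libraries, and it did not pass the test (adjusted p 0.157).

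Of the 15 CD28 family and coinhibitory receptors, 11 had a positive difference (52.2% of all genes), and the median was 0.58. edgeR called Ctla4 alone (0.18% of all genes, upwards), while DESeq2 called 5 higher (4.29%) and limma-voom 1 (0.74%). At an unadjusted p under 0.05, 5 were higher and 2 lower, as were 772 and 500 of all 14996 genes. The groups did not overlap upwards in 4 and downwards in 1 (7.12% and 5.67% of all genes). Cd96, a relative of Tigit that binds a shared ligand, ran the other way, at 26.2, 70.7 and 42.3 CPM in Tregs, against 160, 179 and 150 CPM in Tconvs (log2 difference -1.80 ± 0.62 SE, adjusted p 0.341).

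**Figure D3:**
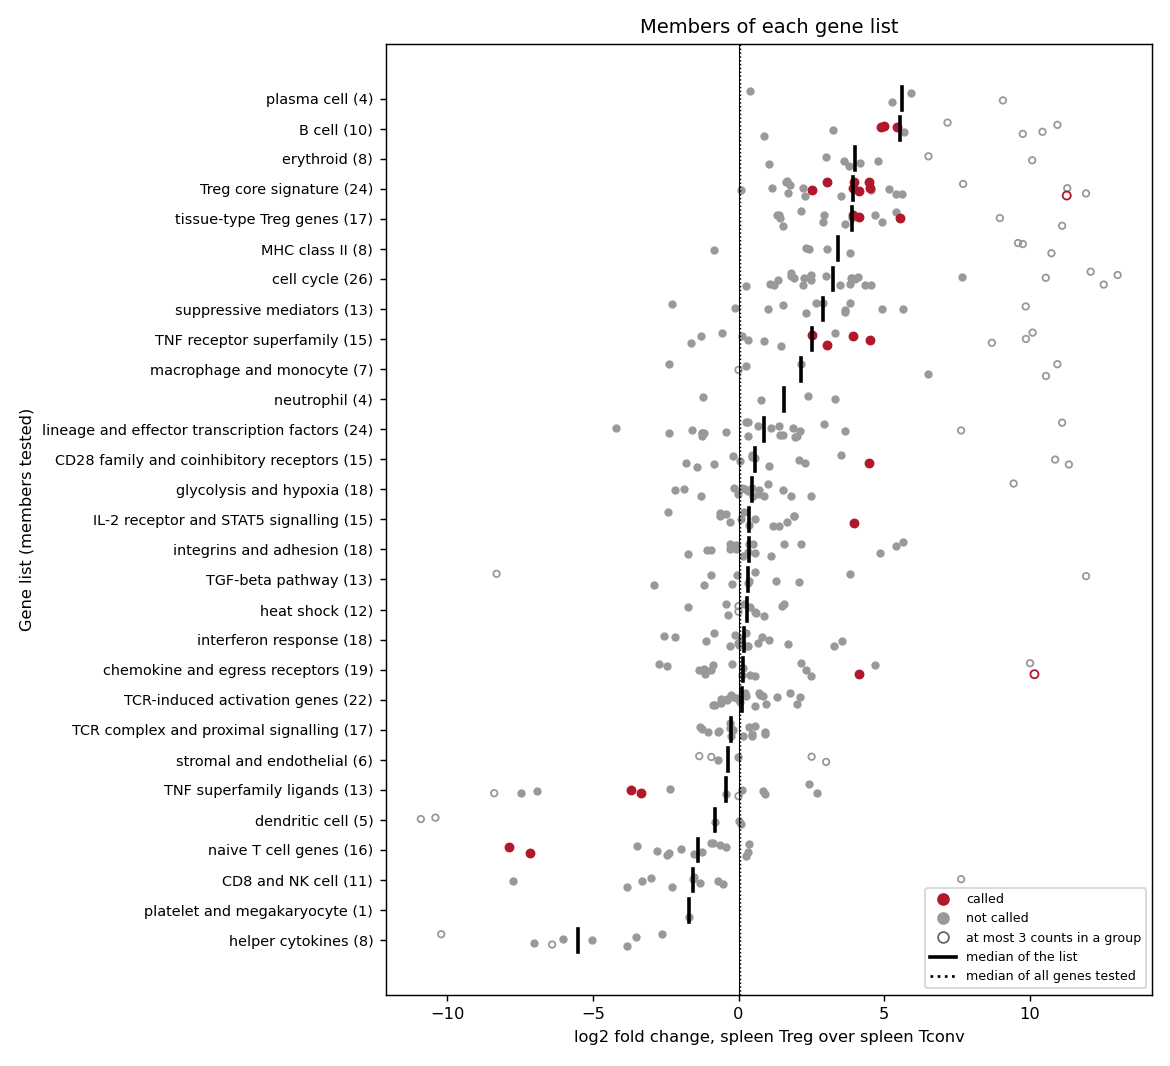
Each point is a member of a gene list with its log2 difference of Tregs over Tconvs in the spleen; called members are red, open symbols had at most 3 counts in a group, bars are list medians and the dotted line is the median of all genes. Members of the Treg core list, among them Foxp3, whose reporter the cell sort used, all lie to the right of 0. Their median is 3.94, while the naive T cell list has a median of -1.38.

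Of the 39 called genes, 7 lie on chromosome 4 (17.9%, against 5.71% of all genes tested, a share that was not tested), and 5 of these are TNF receptors or a direct neighbour of such a receptor. Tnfrsf4 (ENSMUSG00000029075; 156013843 to 156016612, plus strand) encodes OX40 and Tnfrsf18 (ENSMUSG00000041954; 156026164 to 156028895, plus strand) encodes GITR, costimulatory receptors that are high on resting Tregs. Tnfrsf9 (ENSMUSG00000028965; 150914562 to 150946102, plus strand) encodes 4-1BB, which T cells display after activation. Tnfrsf1b (ENSMUSG00000028599; 145213463 to 145246870, minus strand) encodes TNFR2, the receptor through which membrane-bound TNF acts on Tregs. Sdf4 (ENSMUSG00000029076; 155992872 to 156013610, plus strand) encodes Cab45, a calcium-binding protein of the Golgi. Sdf4, Tnfrsf4 and Tnfrsf18 are consecutive coding genes on the plus strand: 232 bases separate the first pair and 9.55 kb the next.

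Tnfrsf9 stood at 457, 265 and 159 CPM in Tregs, against 38.2, 15.3 and 2.82 CPM in Tconvs. It rose 15.1-fold (log2 difference 3.92 ± 0.60 SE, adjusted p 0.00156), with the libraries of both groups spread over a wide range. Tnfrsf1b stood at 77.8, 82.9 and 38.8 CPM in Tregs, against 0.563, 5.43 and 2.42 CPM in Tconvs. It rose 22.9-fold (log2 difference 4.52 ± 0.72 SE, adjusted p 0.00244), and its lowest Treg value was well above its highest Tconv value. Tnfrsf4 was among the most highly counted receptors, with 1797, 1994 and 975 CPM in Tregs, against 355, 135 and 88.4 CPM in Tconvs. It rose 8.21-fold (log2 difference 3.04 ± 0.57 SE, adjusted p 0.0202). Tnfrsf18 stood at 1343, 1223 and 587 CPM in Tregs, against 176, 220 and 151 CPM in Tconvs. It rose 5.76-fold (log2 difference 2.53 ± 0.47 SE, adjusted p 0.0186), and in both genes Treg library 3 was the lowest Treg library.

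Sdf4 stood at 724, 830 and 570 CPM in Tregs, against 49.9, 192 and 89.6 CPM in Tconvs. It rose 6.38-fold (log2 difference 2.67 ± 0.41 SE, adjusted p 0.00190), and the groups did not overlap. The last exon of Sdf4 lies so close to Tnfrsf4 that reads of a transcript running from one into the other could be counted to either, which was not tested here. The call of Tnfrsf18 was lost without Treg library 1 or 2 or Tconv library 1 or 3, with adjusted p up to 0.167. That of Tnfrsf4 was lost without Treg library 2 or Tconv library 2 or 3, with adjusted p up to 0.175. Those of Tnfrsf9, Tnfrsf1b and Sdf4 were kept in each of the 6 repeats.

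The promoters of these 5 genes are shown because the genes lie on a single chromosome, in part side by side, and rose together. Each is the longest run without an annotated exon within the 250 bases before the first start site in RefSeq, on GRCm38.p6, 5′ to 3′ on the strand of the gene. The intervals are chr4:155992650-155992842 (plus) for Sdf4, chr4:156013611-156013694 (plus) for Tnfrsf4, chr4:156026072-156026163 (plus) for Tnfrsf18, chr4:145246871-145247120 (minus) for Tnfrsf1b and chr4:150919905-150920154 (plus) for Tnfrsf9. The Tnfrsf4 run is short because the window reaches back into the last exon of Sdf4, the Sdf4 run because it reaches an exon of B3galt6, and the Tnfrsf18 run ends 158 bases before the start. Capitals mark a match to the STAT motif TTCNNNGAA.
Sdf4: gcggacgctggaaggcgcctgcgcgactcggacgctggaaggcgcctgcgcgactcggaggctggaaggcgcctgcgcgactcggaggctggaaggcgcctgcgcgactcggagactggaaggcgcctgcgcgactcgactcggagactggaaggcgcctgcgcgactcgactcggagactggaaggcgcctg
Tnfrsf4: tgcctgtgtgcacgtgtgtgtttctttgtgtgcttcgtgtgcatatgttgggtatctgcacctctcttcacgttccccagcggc
Tnfrsf18: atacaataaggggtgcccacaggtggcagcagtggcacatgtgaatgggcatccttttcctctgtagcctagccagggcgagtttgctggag
Tnfrsf1b: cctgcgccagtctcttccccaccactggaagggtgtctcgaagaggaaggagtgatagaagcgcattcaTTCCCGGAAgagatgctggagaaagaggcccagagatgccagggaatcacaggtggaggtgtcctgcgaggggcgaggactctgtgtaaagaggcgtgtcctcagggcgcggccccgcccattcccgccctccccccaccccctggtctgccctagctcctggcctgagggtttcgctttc
Tnfrsf9: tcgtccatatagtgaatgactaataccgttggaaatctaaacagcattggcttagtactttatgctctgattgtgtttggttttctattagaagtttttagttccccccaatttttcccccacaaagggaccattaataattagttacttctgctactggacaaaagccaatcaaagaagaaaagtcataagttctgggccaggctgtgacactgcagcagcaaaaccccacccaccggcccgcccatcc
The Sdf4 run consists of near-identical repeats of a short GC-rich unit. The motif match in Tnfrsf1b, TTCCCGGAA, begins 181 bases before the start. STAT factors carry the signal of the interleukin-2 receptor, and TTCNNNGAA on either strand was found in 7.02% of all 32851 promoters of 250 bases in the table. Of the called genes, 23 had a promoter there, and the motif stood in 5 of the 16 that were higher and 0 of the 7 that were lower. The AP-1 motif TGANTCA stood in 3 of 16 and 0 of 7 (6.75% of all promoters), the forkhead motif TGTTTAC in 0 of 16 and 2 of 7 (3.17%), and the kappa-B motif in 4 of 16 and 0 of 7 (3.9%). Both strands were searched and any of a called gene's starts could carry the match. The shares of all promoters count each start by itself, so a gene with several starts had more chances of a match than a single promoter. The counts of genes and the shares of promoters are therefore not in the same unit. These are matches of letters and no evidence of binding.

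Of 15 tested members of the TNF receptor list, edgeR called 4, all higher (0.18% of all genes), DESeq2 called 6 higher (4.29% of all genes) and limma-voom 0, and 12 had a positive difference (52.2% of all genes). The median log2 difference was 2.53. That median was 0.78 without Treg library 2 and 1.19 when the 6 spleen libraries were fitted alone. The summed level of the receptors was 3858, 4604 and 1918 CPM of the library total in Tregs, against 808, 832 and 614 CPM in Tconvs. Tnfrsf8, which encodes CD30, had 404 counts in Tregs and 0 in Tconvs, at least 117-fold higher, but was at 0 in Treg library 1 and did not pass (adjusted p 0.458). The ligands of the family went the other way where they were called. Tnfsf8 (ENSMUSG00000028362; chromosome 4, 63831308 to 63861347, minus strand), the ligand of CD30, stood at 13.2, 9.83 and 16.2 CPM in Tregs, against 233, 177 and 91.2 CPM in Tconvs. Tregs were low and even, and Tnfsf8 fell 12.9-fold (log2 difference -3.69 ± 0.58 SE, adjusted p 0.00244).

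Cd40lg (ENSMUSG00000031132; chromosome X, 57212143 to 57224042, plus strand) encodes CD40 ligand, the signal by which helper T cells activate B cells. It stood at 16.7, 12.9 and 61.9 CPM in Tregs, against 239, 345 and 340 CPM in Tconvs. It fell 10.2-fold (log2 difference -3.35 ± 0.64 SE, adjusted p 0.0242) with no overlap, and Treg library 3 was the highest of the Tregs. The call was lost without Treg library 1 or 2 or Tconv library 3, with adjusted p up to 0.156. Of 13 tested ligands, 2 were called, both lower, against 0.08% of all genes. The list's median log2 difference was -0.44, or -1.39 with genes at 3 counts or fewer in a group set to their bound, and -2.96 without Treg library 2. Tnfsf11, which encodes RANKL, stood at 23.6, 25 and 13.1 CPM in Tregs, against 2.34, 8.18 and 0 CPM in Tconvs (adjusted p 0.529).

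Among receptors for migration signals, Ccr8 and Ccr3 rose. Ccr8, a chemokine receptor known from Tregs of barrier tissues and tumours, stood at 54.4, 156 and 61.8 CPM in Tregs, against 0.0433, 14.0 and 0 CPM in Tconvs (log2 difference 4.13 ± 0.83 SE, 17.5-fold, adjusted p 0.0313). Ccr3, known as the eotaxin receptor of eosinophils, stood at 56.8, 76.4 and 42.2 CPM in Tregs, against 0, 0.118 and 0 CPM in Tconvs (adjusted p 0.0268). Its 4538 counts in Tregs against 3 in Tconvs give a ratio of 1316, with a 95% counting interval of 450 to 6385. For both genes almost all Tconv counts came from library 2. Ccr8 lost its call without Treg library 2 or Tconv library 1 or 3 (adjusted p up to 0.214), and Ccr3 also without Tconv library 2 (up to 0.143).

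Of 19 receptors in the chemokine and egress list 11 had a positive difference (52.2% of all genes), and the median log2 difference was 0.15. The median had the opposite sign without Treg library 1 (-0.45), Tconv library 1 (-0.03) or Tconv library 3 (-0.30), so it had no steady direction. Members moved both ways: at an unadjusted p under 0.05, 7 were higher and 3 lower, as were 772 and 500 of all 14996 genes. In 5 the groups did not overlap upwards and in 4 downwards (7.12% and 5.67% of all genes). edgeR called 2, both higher (0.18%), DESeq2 4 higher and 1 lower (4.29% and 2.06%), and limma-voom 3 higher (0.74%). Ccr7, which guides naive T cells into lymphoid zones, stood at 113, 69.3 and 35.4 CPM in Tregs, against 566, 348 and 267 CPM in Tconvs (log2 difference -2.45 ± 0.61 SE, adjusted p 0.101). Ccr4, a homing receptor for skin and other tissues, stood at 32.2, 30.6 and 11.3 CPM in Tregs, against 0, 2.52 and 0 CPM in Tconvs (adjusted p 0.172). Ccr2, a receptor for monocyte-attracting chemokines, stood at 375, 342 and 392 CPM in Tregs, against 56.8, 151 and 40.3 CPM in Tconvs (adjusted p 0.287). The groups did not overlap for any of these 3 receptors, which held for 12.8% of all genes.

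Klrg1 (ENSMUSG00000030114; chromosome 6, 122270596 to 122282882, minus strand), an inhibitory lectin-like receptor of differentiated T and NK cells, also rose. It stood at 38.8, 353 and 197 CPM in Tregs, against 0, 11.4 and 0 CPM in Tconvs. The Treg libraries differed widely among themselves, and the fitted difference was 5.53 ± 1.07 (SE) on the log2 scale, or 46.4-fold (adjusted p 0.0260). The processed pseudogene Gm6637 lies 12.8 kb away on the opposite strand, at 122295664 to 122296045. It stood at 294, 458 and 290 CPM in Tregs, against 0, 21.4 and 0 CPM in Tconvs (log2 difference 5.47 ± 0.87 SE, adjusted p 0.00320). Reads of a processed pseudogene can come from its parent gene, so this value is uncertain. The call of Klrg1 was lost without Treg library 2 or Tconv library 1 or 3 (adjusted p up to 0.200), while that of Gm6637 was kept in all 6 repeats.

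Klrg1, Ccr8 and Tnfrsf9 were the 3 called members of the list of tissue-type Treg genes (0.18% of all genes were called higher). All 17 members had a positive difference, in 12 of them the groups did not overlap (7.12% of all genes, upwards), and the median log2 difference was 3.89. It was 6.81 without Tconv library 2. The list summed to 2143, 2079 and 1480 CPM of the library total in Tregs, against 164, 545 and 152 CPM in Tconvs. Il10, the suppressive cytokine, stood at 519, 64.9 and 69.6 CPM in Tregs, against 0.13, 19.0 and 0 CPM in Tconvs (log2 difference 4.94 ± 1.10 SE, adjusted p 0.0597). Treg library 1 was far above the other Treg libraries. Itgae, which encodes the integrin CD103, stood at 137, 104 and 79.6 CPM in Tregs, against 0, 6.68 and 0 CPM in Tconvs (adjusted p 0.0597).

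Of 13 tested suppressive mediators 11 had a positive difference and none was called by edgeR, with 9 at an unadjusted p under 0.05, 3 called by DESeq2 and 1 by limma-voom. Their median log2 difference was 2.89. Over all genes, 52.2% had a positive difference, 772 of 14996 were higher at that p, and DESeq2 and limma-voom called 4.29% and 0.74% higher. Gzmb, which encodes the protease granzyme B, stood at 234, 325 and 163 CPM in Tregs, against 0.0433, 50.9 and 3.8 CPM in Tconvs (adjusted p 0.0831). Entpd1, which encodes CD39, an enzyme that degrades extracellular ATP, stood at 33.7, 35.6 and 44.4 CPM in Tregs, against 0, 7.00 and 1.21 CPM in Tconvs (adjusted p 0.199). Itgb8, an integrin chain that releases active TGF-beta, stood at 31.8, 36.9 and 98.7 CPM in Tregs, against 0, 2.91 and 0 CPM in Tconvs (adjusted p 0.0597). In each of these genes the lowest Treg library was above the highest Tconv library.

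Of the 12 genes that fell, Dapl1 had the smallest p, and it and Igfbp4 belong to the list of naive T cell genes. Dapl1 (ENSMUSG00000026989; chromosome 2, 59484653 to 59505020, plus strand), which encodes a small death-associated-protein-like protein and marks naive T cells, stood at 0, 0 and 10.4 CPM in Tregs, against 443, 305 and 699 CPM in Tconvs. It fell by 7.18 ± 0.85 (SE) on the log2 scale, or 145-fold (adjusted p 5.34e-05), and 248 counts were found in Tregs, all in library 3, against 30109 in Tconvs. Igfbp4, which encodes a binding protein of insulin-like growth factors, stood at 0, 0.704 and 0.0417 CPM in Tregs, against 133, 60.9 and 13.4 CPM in Tconvs (log2 difference -7.89 ± 1.70 SE, adjusted p 0.0368). The Tconv libraries were uneven, and the call was kept only without Tconv library 3, being lost in each of the other 5 repeats (adjusted p up to 0.262). Bach2it1, a non-coding RNA inside an intron of Bach2, had 0 counts in Tregs and stood at 9.4, 15.6 and 35.2 CPM in Tconvs, at least 469-fold lower in Tregs (adjusted p 0.0405). It was called in none of the 6 repeats (adjusted p up to 0.267).

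Bach2 itself, a repressor of effector programmes, is named here after its values were seen: it stood at 4.60, 12.5 and 24.3 CPM in Tregs, against 79.0, 24.6 and 117 CPM in Tconvs (adjusted p 0.335). Of 16 naive T cell genes 13 had a negative difference, 2 were called lower (0.08% of all genes), and in 10 the groups did not overlap downwards, which held for 5.67% of all genes. The median log2 difference was -1.38. Tcf7, which encodes TCF-1, stood at 52.9, 13.2 and 22.9 CPM in Tregs, against 155, 210 and 241 CPM in Tconvs (log2 difference -2.79 ± 0.65 SE, adjusted p 0.0644). Lef1, a transcription factor of the same family, stood at 92.1, 104 and 46.0 CPM in Tregs, against 400, 218 and 333 CPM in Tconvs (adjusted p 0.141).

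Pde3b (ENSMUSG00000030671; chromosome 7, 114415281 to 114539251, plus strand) encodes a phosphodiesterase that breaks down cyclic AMP and is known as a gene that Foxp3 represses in mouse Tregs. It stood at 0, 0 and 0.167 CPM in Tregs, against 135, 78.8 and 93.3 CPM in Tconvs, that is 4 counts against 6750. It fell (log2 difference -10.78 ± 1.65 SE, adjusted p 0.00208) and kept its call in all 6 repeats. Themis, a scaffold of T cell receptor signalling needed for thymic selection, stood at 0.866, 8.79 and 18.2 CPM in Tregs, against 145, 129 and 143 CPM in Tconvs. The Tconv libraries were nearly equal, and Themis fell 14.8-fold (log2 difference -3.88 ± 0.79 SE, adjusted p 0.0305). Its call was kept without Treg library 3 and lost in each of the other 5 repeats (adjusted p up to 0.167).

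Ccnd3, which encodes cyclin D3, stood at 76.0, 52.1 and 40.4 CPM in Tregs, against 202, 153 and 356 CPM in Tconvs, and fell 4.22-fold (log2 difference -2.08 ± 0.44 SE, adjusted p 0.0368). Stk26, a Ste20-like kinase, stood at 8.57, 7.28 and 21 CPM in Tregs, against 151, 60.3 and 94.7 CPM in Tconvs, and fell 8.41-fold (log2 difference -3.07 ± 0.63 SE, adjusted p 0.0321). Rgcc, a regulator of the cell cycle, stood at 64.1, 85.8 and 35.6 CPM in Tregs, against 379, 187 and 260 CPM in Tconvs, and fell 4.43-fold (log2 difference -2.15 ± 0.46 SE, adjusted p 0.0432). These 3 genes were lower in every Treg library than in any Tconv library. Qpct, which encodes glutaminyl cyclase, had 1 count in Tregs and 2595 in Tconvs, where it stood at 58.5, 26.0 and 33.6 CPM (adjusted p 0.0321). The Tconv over Treg ratio of its counts is 2982, with a counting interval of 535 to 117833. The calls of these 4 genes were kept without Tconv library 2 and lost in each of the other 5 repeats (adjusted p up to 0.350 for Ccnd3). The processed pseudogene Gm17828, inside Zfp280d, was at 2.46, 1.44 and 1.84 CPM in Tregs, against 72.2, 30.4 and 133 CPM in Tconvs (adjusted p 0.00156), and is uncertain for the reason given for Gm6637.

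Helper cytokines were measured at low levels. Of 12 in the list, 8 passed the filter on low counts. All 8 had a negative difference, the median being -5.52 on the log2 scale, and none was called by edgeR, with 6 at an unadjusted p under 0.05, 2 called by DESeq2 and 1 by limma-voom. Among all 14996 genes, 7173 had a negative difference and 500 were lower at that p. DESeq2 and limma-voom called 2.06% and 0.167% of all genes lower. Il4, the cytokine of type 2 help, stood at 0, 1.88 and 0 CPM in Tregs, against 37.5, 76.6 and 27.1 CPM in Tconvs (log2 difference -6.02 ± 1.39 SE, adjusted p 0.0660). Il2, which encodes interleukin-2, stood at 9.11, 0.101 and 0.292 CPM in Tregs, against 36.5, 12.5 and 52.2 CPM in Tconvs (adjusted p 0.261). Ifng, the cytokine of type 1 help, stood at 14.4, 15.3 and 19.3 CPM in Tregs, against 113, 138 and 52.7 CPM in Tconvs (adjusted p 0.470). The summed level was 31.8, 19.2 and 21.2 CPM of the library total in Tregs, against 200, 398 and 151 CPM in Tconvs. Markers of CD8 and NK cells, which also make interferon-gamma, were highest in Tconv library 2, as given above, and Klrb1c, which encodes NK1.1, stood at 0.683, 0.0335 and 0 CPM in Tregs, against 2.99, 103 and 30.3 CPM in Tconvs (adjusted p 0.0628). Of the 11 tested markers of these cells 10 had a negative difference and edgeR called none, with 4 at an unadjusted p under 0.05. DESeq2 called 1 lower and 1 higher, and limma-voom called 0. The higher one was Eomes, with 85 of its 86 Treg counts in Treg library 2. The part of CD8 and NK cells in the cytokine levels was not tested.

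Further genes rose that no list of Treg genes held. Glrx, which encodes glutaredoxin, stood at 504, 700 and 519 CPM in Tregs, against 192, 194 and 79.5 CPM in Tconvs, and rose 3.68-fold (log2 difference 1.88 ± 0.38 SE, adjusted p 0.0313). Samsn1, an adaptor protein of lymphocytes, stood at 344, 321 and 304 CPM in Tregs, against 43.9, 150 and 49.8 CPM in Tconvs, and rose 3.94-fold (log2 difference 1.98 ± 0.40 SE, adjusted p 0.0321). The Treg libraries were close to each other in both genes. Wls, the carrier that brings Wnt proteins to the cell surface, stood at 132, 140 and 92.1 CPM in Tregs, against 0, 12.6 and 2.71 CPM in Tconvs (22.3-fold, adjusted p 0.0368). Glrx was called in none of the 6 repeats without a library (adjusted p up to 0.266), and Samsn1 and Wls only without Tconv library 2 (up to 0.296 and 0.304).

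Rln3, which encodes the hormone relaxin-3, stood at 76.6, 302 and 27.4 CPM in Tregs, against 0, 3.58 and 2.71 CPM in Tconvs (65.1-fold, adjusted p 0.0305). Ankrd55, a gene with ankyrin repeats, stood at 86.7, 40.4 and 59.3 CPM in Tregs, against 0, 5.03 and 0 CPM in Tconvs (32.2-fold, adjusted p 0.0260). Cep112, whose protein sits at the centrosome, stood at 44.6, 33.9 and 29.8 CPM in Tregs. With 0 counts in Tconvs it was at least 785-fold higher in Tregs (adjusted p 0.0305). Rln3 was the most uneven of the 3 and Cep112 the most even. Each lost its call in at least 4 of the 6 repeats, with adjusted p up to 0.265 for Rln3, 0.252 for Ankrd55 and 0.174 for Cep112: Rln3 without Treg library 2 or any Tconv library, Ankrd55 without Treg library 1 or 3 or Tconv library 1 or 3, and Cep112 without any of the 6. Exons of Ankrd55 and Cep112 overlap those of Gm48837 and Cep112os1 on the other strand, and the same holds for Ikzf2 with Gm29114, Tnfrsf18 with Gm16008, Ccnd3 with Bysl and Themis with 4930519F09Rik. Without a known strand setting the counts of these genes cannot be told from those of the partner.

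Genes of the cell cycle had positive differences throughout, without passing the test. All 26 members of the list had a positive difference, with a median of 3.24 on the log2 scale. While edgeR called none, 18 reached an unadjusted p under 0.05, with 7 calls from DESeq2 and 2 from limma-voom. Among all 14996 genes, 52.2% had a positive difference and 772 were higher at that p. The other tools called 4.29% (DESeq2) and 0.74% (limma-voom) of all genes higher. Top2a, the topoisomerase that untangles replicated DNA, stood at 23.9, 97.8 and 195 CPM in Tregs, against 0, 1.53 and 14.0 CPM in Tconvs (log2 difference 4.55 ± 1.05 SE, adjusted p 0.0601). Mki67, the proliferation marker Ki-67, stood at 19.8, 111 and 221 CPM in Tregs, against 29.2, 12.9 and 0 CPM in Tconvs, so that Treg library 1 lay within the range of the Tconvs (adjusted p 0.270). Hist1h1b, which encodes a linker histone made in S phase, was outside the list and was called, at 16.6, 59.6 and 139 CPM in Tregs, against 0, 0.197 and 0 CPM in Tconvs (adjusted p 0.0172). It lost its call without Treg library 3 or any Tconv library (adjusted p up to 0.116). The list summed to 881, 2544 and 2697 CPM of the library total in Tregs, against 373, 723 and 515 CPM in Tconvs. Treg libraries 2 and 3, the higher ones, were also those with more immunoglobulin and plasma cell counts, and the part of such cells in the cell cycle counts was not tested.

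**Figure D4:**
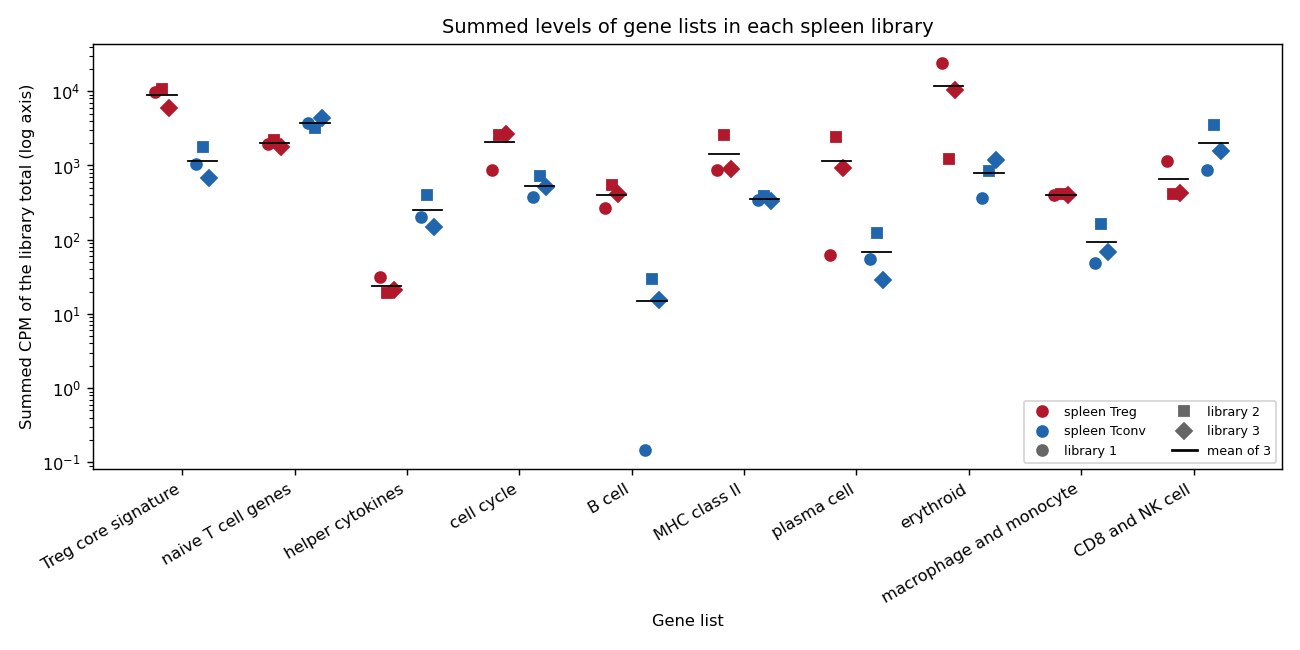
Summed CPM of the library total of each gene list in the 3 Treg libraries (left) and the 3 Tconv libraries (right) of the spleen, on a log axis, with lines at the mean of 3. Treg core genes sum to between 5927 and 10834 CPM in Tregs and between 669 and 1753 CPM in Tconvs, and the B cell, plasma cell and erythroid markers are also higher in Tregs.

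Of the 27 genes called higher, 7 are B cell markers or immunoglobulin genes. Cd79a and Cd79b encode the signalling chains of the B cell receptor, and Ms4a1 encodes CD20. Cd79a stood at 105, 254 and 84.3 CPM in Tregs, against 0, 8.81 and 6.10 CPM in Tconvs (log2 difference 4.89 ± 0.99 SE, adjusted p 0.0260). Cd79b stood at 85.8, 133 and 141 CPM in Tregs, against 0, 9.91 and 0 CPM in Tconvs (adjusted p 0.0321). Ms4a1 stood at 57.1, 43.3 and 58.0 CPM in Tregs, against 0, 3.19 and 0 CPM in Tconvs (adjusted p 0.0321). Every Treg library was thus above every Tconv library. Ighm and Ighd, the constant regions of the immunoglobulins IgM and IgD, lie 2.23 kb apart on chromosome 12. Ighd had 8092 counts in Tregs, at 50.7, 115 and 148 CPM, against 1 count in Tconvs (ratio 7042, counting interval 1263 to 278160, adjusted p 0.00496). Ighm stood at 1439, 2713 and 956 CPM in Tregs, against 520, 504 and 424 CPM in Tconvs (3.53-fold, adjusted p 0.0383). It did not move with the B cell markers throughout, which summed to 0.148 CPM of the library total in Tconv library 1. In the heart Ighm averaged 896 CPM in Tregs and 246 CPM in Tconvs, while the B cell markers averaged 15.3 and 22.7 CPM of the library total. The source of its counts was not tested.

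The light chain genes Iglc2 and Igkv13-85 were the remaining pair. Iglc2 stood at 91.6, 186 and 246 CPM in Tregs, against 0, 15 and 11.6 CPM in Tconvs (adjusted p 0.0480), and Igkv13-85 at 43.7, 123 and 13.4 CPM in Tregs, against 1 count in Tconvs (adjusted p 0.0463). Members of these families resemble each other, and Iglc2 overlaps Iglj2 on the same strand, so the split of reads among them is uncertain. Ighd kept its call in all 6 repeats. Cd79a kept it without Treg library 1 or 3, Cd79b without Tconv library 2, Ighm and Igkv13-85 without Treg library 3, and Ms4a1 and Iglc2 in none, with adjusted p between 0.256 and 0.397 at the highest for these 6 genes. All 10 tested B cell markers had a positive difference. edgeR called 3 (0.18% of all genes), limma-voom 3 (0.74%) and DESeq2 0 (4.29%). The list's median was 5.56 on the log2 scale, or 5.22 with genes at 3 counts or fewer set to their bound. The median was 9.79 without Tconv library 2. Ebf1, a transcription factor that commits cells to the B lineage, stood at 5.88, 11 and 5.97 CPM in Tregs, at least 174-fold above Tconvs, in which it was not counted (adjusted p 0.197).

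Of the 8 genes of MHC class II, by which B cells and other presenting cells display antigen, 7 had a positive difference and none was called by edgeR. An unadjusted p under 0.05 was found for 4, DESeq2 called 2 and limma-voom 1, and the shares over all genes are those given for the cell cycle list. The 8 genes summed to 859, 2586 and 890 CPM of the library total in Tregs, against 337, 384 and 327 CPM in Tconvs. H2-Aa stood at 179, 368 and 245 CPM in Tregs, against 4.68, 68.4 and 77.4 CPM in Tconvs (adjusted p 0.369). The 4 tested plasma cell genes summed to 61.6, 2413 and 930 CPM in Tregs, against 55.3, 122 and 28.5 CPM in Tconvs. Jchain, which joins secreted antibodies, stood at 0, 1964 and 827 CPM in Tregs, against 0.0433, 56.2 and 13.3 CPM in Tconvs (adjusted p 0.503). Hba-a1, a haemoglobin gene of red blood cells, stood at 11737, 670 and 5440 CPM in Tregs, against 216, 505 and 742 CPM in Tconvs (adjusted p 0.438). The order of the Treg libraries was thus not the same for the 2 kinds of cell: library 2 was highest in plasma cell genes and lowest in haemoglobin. Of the erythroid markers all 8 tested had a positive difference, 5 with an unadjusted p under 0.05, and none was called by any of the 3 tools. Macrophage and monocyte markers summed to 396, 417 and 403 CPM in Tregs, against 48.7, 163 and 68.3 CPM in Tconvs, of which Ccr2, a receptor that T cells use too, made up most. Few of the neutrophil, dendritic cell, platelet and stromal markers were tested (4, 5, 1 and 6), and edgeR called none of them or of the macrophage and plasma cell markers. Among tested markers, 3 of 7 macrophage, 2 of 4 plasma cell and 1 of 4 neutrophil were higher at an unadjusted p under 0.05. At that p, 2 of 5 dendritic cell markers were lower, and 8.48% of all genes passed in either direction. DESeq2 called 2 macrophage and 1 plasma cell marker higher and 1 dendritic cell marker lower (6.35% of all genes, both directions). It called no neutrophil marker, and limma-voom called none of these markers (0.907%).

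A further set of 87 genes was called by both DESeq2 and limma-voom but not by edgeR, of which 58 higher and 13 lower remained once predicted genes, ribosomal protein genes, receptor segments and pseudogenes were left out. Maf, a transcription factor that drives interleukin-10 in T cells, was among those with the smallest edgeR p, at 241, 250 and 200 CPM in Tregs, against 47.6, 56.7 and 67.4 CPM in Tconvs (log2 difference 2.01 ± 0.46 SE, adjusted p 0.0597). Its values were tight in both groups. Cdkn1a, which encodes the cell cycle inhibitor p21, had 1277 counts in Tregs, at 30, 15.4 and 6.68 CPM, and 1 in Tconvs (ratio 1111, counting interval 199 to 43925, adjusted p 0.0660). Gsta4, a glutathione transferase, stood at 11.2, 54.5 and 40.7 CPM in Tregs, and the 0 counts in Tconvs make it at least 825-fold higher (adjusted p 0.0644). Fcmr, the Fc receptor for IgM, known mainly from B cells, stood at 73.9, 51.8 and 30.8 CPM in Tregs. It was at least 1132-fold higher there, since Tconvs had 0 counts (adjusted p 0.0860). Ect2, a factor of cell division, and Oip5, a centromere protein, had 0 counts in Tconvs as well, at least 837-fold and 656-fold higher in Tregs.

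On the lower side, Id2, an inhibitor of E proteins that is high in effector and NK cells, stood at 943, 482 and 391 CPM in Tregs, against 1313, 2961 and 1254 CPM in Tconvs (log2 difference -1.61 ± 0.43 SE, adjusted p 0.137). Commd8, a member of a family of copper and NF-kappa-B regulators, stood at 142, 122 and 166 CPM in Tregs, against 334, 436 and 326 CPM in Tconvs (log2 difference -1.35 ± 0.35 SE, adjusted p 0.124). Both had groups that did not overlap. Tmem141, Ifitm10, Fam240a, Ggt5 and Dse had 0 counts in Tregs and were at least 263-fold to 842-fold lower there. Pdlim4 and Lcn4 had 1 count each in Tregs, against 2071 and 1612 in Tconvs. Bcl2, which protects T cells from death, did not pass either, at 47.4, 33.2 and 38 CPM in Tregs, against 149, 136 and 346 CPM in Tconvs (log2 difference -2.41 ± 0.59 SE, adjusted p 0.0860).

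Several programmes of T cells gave no edgeR call. None of the 17 genes of the T cell receptor complex and its first signalling steps was called (0.26% of all genes). Of these, 7 had a positive difference (52.2% of all genes) and 10 a negative one, and the median was -0.26 on the log2 scale. An unadjusted p under 0.05 was found for 3 (8.48% of all genes), and in 4 the groups did not overlap downwards (5.67%). None of 22 genes induced by the T cell receptor was called, with a median of 0.13 that turned to -0.25 without Treg library 1, and only Nfatc2, a calcium-dependent factor, had an unadjusted p under 0.05. None of 18 interferon-response genes was called, none had an unadjusted p under 0.05, and the median was 0.17, or -0.04 without Tconv library 3. In these lists DESeq2 called at most 1 gene and limma-voom none. A missed threshold with 3 libraries a group does not show equal levels.

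The 18 glycolysis and hypoxia genes had a median of 0.47 and the 12 heat shock genes one of 0.28, with no call by edgeR and with 2 and 1 genes at an unadjusted p under 0.05. DESeq2 called 1 gene of the first of these lists, and limma-voom none of either. Hif1a, the oxygen-regulated transcription factor, stood at 301, 230 and 274 CPM in Tregs, against 105, 143 and 148 CPM in Tconvs (log2 difference 1.02 ± 0.39 SE, adjusted p 0.444). Of 24 lineage and effector transcription factors, 16 had a positive difference and the median was 0.89. edgeR called none, 11 had an unadjusted p under 0.05, and the other tools called 4 (DESeq2) and 2 (limma-voom). Over all genes and both directions the shares were 8.48% at that p, 0.26% (edgeR), 6.35% (DESeq2) and 0.907% (limma-voom). They stand beside every list of this paragraph and of the one before. Of 15 genes of the interleukin-2 receptor and STAT5 pathway edgeR called only Il2ra, and the median was 0.36, or -0.16 without Treg library 2. DESeq2 and limma-voom did not call Il2ra (adjusted p 0.238 and 0.126). DESeq2 called Bcl2 alone, lower, and limma-voom none. At an unadjusted p under 0.05, 3 of the 15 were higher and 1 lower. Among 18 integrins and adhesion molecules the median was 0.35, with no edgeR call, 5 at an unadjusted p under 0.05, 3 called by DESeq2 and 2 by limma-voom. The 13 tested TGF-beta pathway genes had a median of 0.33, or -0.06 without Treg library 3, with no edgeR call, 2 at an unadjusted p under 0.05 and 1 called by each of the other tools.

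The same contrast was available in the NDLN and the heart, from libraries other than the spleen ones. These libraries entered the same fit, so they also helped to set the filter, scaling and spread by which the 39 genes were called. In the NDLN, 37 of the 39 genes had the same direction (94.9%, against 55.9% of all genes), and 27 were among the 64 genes called there (0.427%). In the heart, 35 of the 39 had the same direction (89.7%, against 51.5% of all genes), and 8 were among the 18 called there (0.12%). Ikzf2 rose in both, by 4.98 in the NDLN (adjusted p 1.29e-05) and by 4.003 in the heart (adjusted p 0.000364) on the log2 scale. Dapl1 fell by 4.62 in the NDLN (adjusted p 0.00127) and by 9.44 in the heart (adjusted p 0.0146). The exceptions in direction were Stk26 and Igkv13-85 in the NDLN, and Ighd, Cd79a, Ms4a1 and Igkv13-85 in the heart. Heart Treg library 1 and heart Tconv libraries 1 and 2 belong to a set of 5 libraries that stand apart. Mitochondrial genes took 0.956%, 1.28% and 1.37% of their counts, against 6.68% and 6.7% in heart Treg libraries 2 and 3 and 2.88% in heart Tconv library 3. The set is thus split unevenly between heart Tregs and heart Tconvs, and the heart differences here and below are not adjusted for it.

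**Figure D5:**
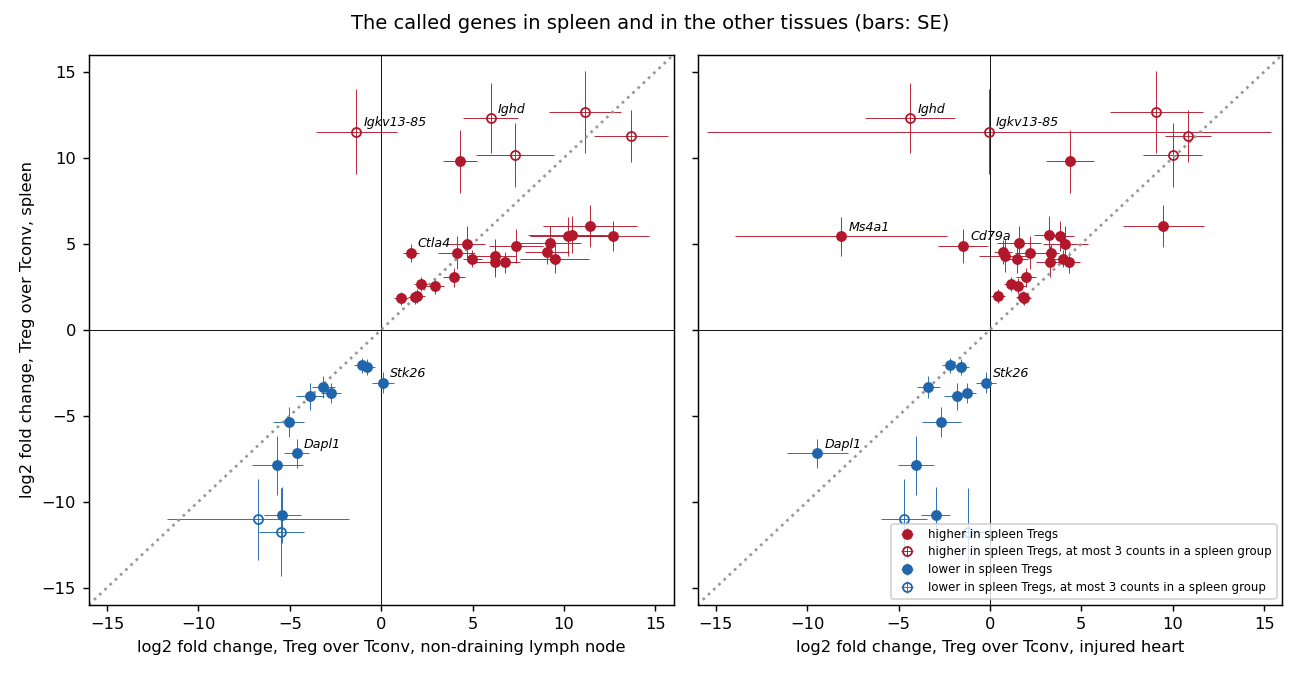
Log2 difference of Tregs over Tconvs of the 39 called genes in the spleen (y axis) against that in the NDLN (x axis, left panel) and the heart (x axis, right panel). Bars are 1 SE, and some run past the axes. In the NDLN 37 genes and in the heart 35 genes share the direction of the spleen, and the B cell genes Ighd, Cd79a and Ms4a1 do not in the heart.

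Whether a difference in the spleen departs from that elsewhere was tested directly, and edgeR called 0 of 14996 genes (0%) in either test. Against the NDLN, 763 genes had an unadjusted p under 0.05 (5.09%), and DESeq2 called 1003 (7.09%) and limma-voom 0. Against the heart, 901 genes had an unadjusted p under 0.05 (6.01%), and DESeq2 called 844 (5.97%) and limma-voom 33 (0.22%). Ctla4 had the smallest p among genes with a larger difference in the spleen than in the NDLN. In the NDLN it stood at 441 ± 107 CPM in Tregs and 142 ± 92.6 CPM in Tconvs (SD, n = 3 each), and the spleen difference exceeded the NDLN difference by 2.86 ± 0.66 (SE) on the log2 scale (adjusted p 0.967). Stk26 stood at 48.9 ± 20.6 CPM in Tregs and 46.1 ± 14.2 CPM in Tconvs in the NDLN, and at 74.7 ± 22.0 CPM in Tregs and 86.7 ± 40.5 CPM in Tconvs in the heart. Its spleen difference was lower by 3.16 ± 0.86 (SE) than in the NDLN and by 2.86 ± 0.83 (SE) than in the heart (adjusted p 0.967 and 0.694).

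In the heart, some genes called in the spleen stood at high levels in Tconvs too. Tnfrsf1b stood at 187 ± 65.1 CPM in heart Tregs and 113 ± 35.0 CPM in heart Tconvs, so the spleen difference was larger by 3.80 ± 0.89 (SE) on the log2 scale (adjusted p 0.646). Ccr8 stood at 381 ± 103 CPM in heart Tregs and 139 ± 52.7 CPM in heart Tconvs, and Samsn1 at 816 ± 137 CPM in heart Tregs and 610 ± 43.9 CPM in heart Tconvs. In spleen Tconvs these 3 genes averaged 2.80, 4.68 and 81.3 CPM. The B cell markers had a median log2 difference of 5.56 in the spleen, 8.67 in the NDLN and -2.94 in the heart. They summed to 273 to 359 CPM of the library total in NDLN Tregs and 0.102 to 2.14 CPM in NDLN Tconvs, but to 0.112 to 23.4 CPM in heart Tregs and 0 to 60.3 CPM in heart Tconvs. Cell cycle genes had medians of 3.24 in the spleen, 4.35 in the NDLN and 2.47 in the heart, and the Treg core list 3.94, 4.29 and 1.94.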

How the data were processed

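The authors deposited a table of raw read counts, a whole number for each gene and library. Per the submitters' processing notes, it was made with CASAVA 1.8.2, HISAT2 and HTSeq 0.6.0 on build mm10, while annotation and strand setting were not given in the sources used here. Of 49510 genes in the table, 49326 IDs matched GENCODE M21, which gave names and positions (GRCm38, counted from 1), 26 symbols that had become dates were restored from their ID, and 168 genes share a symbol. Each of 21 columns matched a single library by its name, and 0 columns were left unused.

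Genes were kept by filterByExpr (minimum count 10, minimum total 15), and counts were scaled with TMM factors in edgeR 4.0.16 under R 4.3.3. All 21 libraries in 7 groups of 3 entered a single quasi-likelihood fit with robust estimation, so that they share an estimate of the spread, which the 3 libraries of each spleen group alone would fix poorly. Genes were called at a Benjamini-Hochberg adjusted p under 0.05 over all genes tested. SE values were derived from the log2 difference and the F statistic. A further pair of contrasts asked whether the spleen difference departs from that in the NDLN or the heart. CPM are TMM-scaled except in sums over lists, which are CPM of the library total. Ratios of genes with 1 to 3 counts in a group carry a 95% exact counting interval, and with 0 counts a bound set at 3 counts over the group. Intervals and bounds cover counting error only.

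The members and the gene lists were chosen with earlier results of these data known. Genes named are all called genes, up to 10 in each direction called by DESeq2 1.42.0 and by limma-voom (limma 3.58.1) but not by edgeR, up to 5 per list with the smallest p plus members that define a list, up to 5 in each direction of each interaction, and Bach2. Alternatives were these tools, scaling, filters, the older quasi-likelihood setting, other sets of libraries, a replicate block and leaving out single libraries. The tests were run on simulated counts in which every gene had the same dispersion. That dispersion was below the common dispersion of 2.19 estimated from these data, so the check does not cover the spread of these libraries. Promoter sequences come from RefSeq (GRCm38.p6). A few list members are not reported here.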

Additional observations from a re-analysis of the deposited data

Results flagged for a closer look

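Among 119 named genes, 4 had opposite directions in the spleen and in another place, with no overlap of Tregs and Tconvs in either place. Over all 14996 genes such a pattern occurred for 37 against the NDLN and for 71 against the heart. Part of the 119 were picked by the smallest p of the tests between places, among them Id2 and H2-Aa. Opposite directions were thus in part built into the choice, and the counts over all genes are no background for the 4. The edgeR test of the difference passed for none of the 4 genes.

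Id2, an inhibitor of E proteins, had a log2 difference of Tregs over Tconvs of -1.61 in the spleen and 0.54 in the heart (interaction adjusted p 0.689). H2-Aa, a chain of MHC class II, had one of 2.41 in the spleen and -10.93 in the heart, where Tregs stood at 0.0395 ± 0.0685 CPM and Tconvs at 89.8 ± 87.9 CPM (SD, n = 3 each; interaction adjusted p 0.146). Tnfsf11, which encodes RANKL, had one of 2.41 in the spleen and -2.25 in the heart, where Tregs stood at 48.0 ± 38.4 CPM and Tconvs at 229 ± 127 CPM (interaction adjusted p 0.689). Tgfb1, which encodes TGF-beta 1, had one of 3.83 in the spleen and -5.63 in the NDLN (interaction adjusted p 0.967), at 2.23, 1.84 and 2.71 CPM in spleen Tregs, against 0.433, 0 and 0 CPM in spleen Tconvs, so it rests on few counts.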

How the results depend on the processing

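The number of genes called in the spleen, 39 in the reported fit (27 higher, 12 lower), was 898 with DESeq2, 136 with limma-voom, 70 with the 16 libraries outside a set of 5 that stand apart in other groups, and 9 with edgeR's older quasi-likelihood setting. With single libraries left out it ran from 13 to 32. It stayed within 1.5 times under both other scalings and both other filters (40 to 57), with 42 higher and 11 lower where library totals alone set the scale. That scale moved the median log2 difference of all genes to 0.17. Each setting shared genes with the 39: 34 with DESeq2, 21 with limma-voom, 7 with the older setting. Against the NDLN difference the calls were 1003 with DESeq2 and 0 in the other settings run. Against the heart difference they were 844 with DESeq2, 33 with limma-voom, 2 with the older setting, 1 without a filter and 1 with at least 5 CPM in 3 libraries, and 0 elsewhere. The cause of these differences between settings was not tested. With the replicate number as a replicate block there were 48 calls, 35 of them shared. The 6 spleen libraries alone gave 53 calls, of which 28 were shared, and with the replicate block 32 calls, of which 11 were shared, so that 28 of the 39 were lost. Deviations of same-numbered libraries correlated at 0.0725, 0.0909 and 0.0582, each above 0 and higher than with another number, but under 0.1. The labels do not say what a shared number stands for. At 0 counts in a group, depth allows only a bound on the difference.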
